A study of Mus musculus with 4 samples.

Results

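The regions described here are the peaks called in the last megabase (Mb) of each mouse autosome, at the chromosome end away from the centromere. Each autosome's end was taken as the largest peak end found on it in either of 2 deposited peak lists, and members are the peaks that start within 1000000 bp of it. They number 6015 of 809030 peaks in all, 853 of the 109740 in the list from proliferating cells and 5162 of the 699290 in the list from arrested cells. They were compared with 60135 peaks that start 5 to 15 Mb from the same ends, called the inner band below.

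The lists come from chromatin immunoprecipitation and sequencing (ChIP-seq) with antibodies to pRb, the retinoblastoma protein, in primary mouse embryonic fibroblasts of the strain C57BL/6. The cells came from E13.5 embryos, were used at passage 4 and were fixed with 2 cross-linkers. The proliferating cells grew asynchronously in 10% serum, and the other cells were arrested for 72 hours in 0.1% serum. Both libraries carry KO in their titles and no label names the deleted gene, so it is unknown here whether these cells made pRb, and peaks are described as calls and not as sites bound by pRb. Each condition had 1 immunoprecipitated library, so differences between conditions have no replicate check and carry no p-value; the inputs and the wild-type reference that the design mentions were not analysed here.

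Mouse autosomes carry their centromere close to one tip, so the distal tip is the end of the long arm. It is capped by a telomere, an array of short G-rich repeats bound by the shelterin proteins, and flanked by subtelomeric sequence that often holds segmental duplications. Members of the retinoblastoma protein family bind E2F transcription factors and recruit chromatin modifiers, and they have been linked in mouse fibroblasts to histone methylation and length control at telomeres. Short reads from the telomere repeats themselves cannot be placed on one chromosome, so peak lists reach only as far as the unique sequence next to them.

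The arrested list set the end of 18 of the 19 autosomes. On those 18 the last proliferating peak ended between 2433 and 59496 bp before the last arrested one, with a median of 11238 bp. The proliferating list set the end of chromosome 9, where the last arrested peak ended 16419 bp earlier. The difference of 59496 bp was on chromosome 4, so both lists reached close to the same end on every autosome. The farthest proliferating member started 999812 bp from its end, on chromosome 18, and the nearest proliferating peak outside started at 1000727 bp, on chromosome 6. For arrested peaks these distances were 999908 bp, on chromosome 6, and 1000293 bp, on chromosome 19.

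Peaks were as dense in the last megabase as in the inner band, in both growth states. The distal 19 Mb held 44.9 proliferating peaks per Mb (95% exact Poisson interval 41.9 to 48.0), and the inner band held 44.7 (43.7 to 45.6). Arrested cells had 271.7 peaks per Mb (264.3 to 279.2) in the distal 19 Mb and 271.8 (269.5 to 274.2) in the inner band. The ratio of distal to inner density was 1.005 in proliferating cells (exact interval 0.936 to 1.08) and 0.999 in arrested cells (0.971 to 1.03). An excess or a deficit of peaks above 10% was outside these counting intervals in both lists. These intervals cover counting error only, and autosomes and windows are not replicates of a condition. Single 1 Mb windows of the band varied more than counting error. Set against the rest of their band, 15.8% of proliferating and 21.6% of arrested windows had a 95% interval that left out 1. The intervals above are therefore too narrow to set a limit of 10%.

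The bases under peaks gave the same picture as the number of peaks. Proliferating peaks covered 0.733% of the distal 19 Mb and 0.738% of the inner band, and arrested peaks covered 6.27% and 6.29%. The median spacing of neighbouring peak starts was 14810 bp at the ends and 15060 bp in the inner band in proliferating cells, and 2524 and 2557 bp in arrested cells. The distal ends make up 0.769% of the autosomal length, counted from the first base of each autosome to its end. They held 0.822% of the proliferating and 0.785% of the arrested autosomal peaks. Against the whole rest of the autosomes, the density ratio was 1.07 (0.999 to 1.14) in proliferating and 1.02 (0.994 to 1.05) in arrested cells. That length includes megabases with 0 peaks on every autosome, which lowers the density of the rest. The small excess at the ends in these shares and ratios was not corrected for them.

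In steps of 1 Mb from the end, density neither rose nor fell steadily over the outer 15 Mb. Proliferating density lay between 40.9 per Mb, at 5 to 6 Mb, and 47.1, at 9 to 10 Mb. Arrested density lay between 258.6, at 6 to 7 Mb, and 284.2, at 10 to 11 Mb. The outermost step was inside both ranges.

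**Figure D1:**
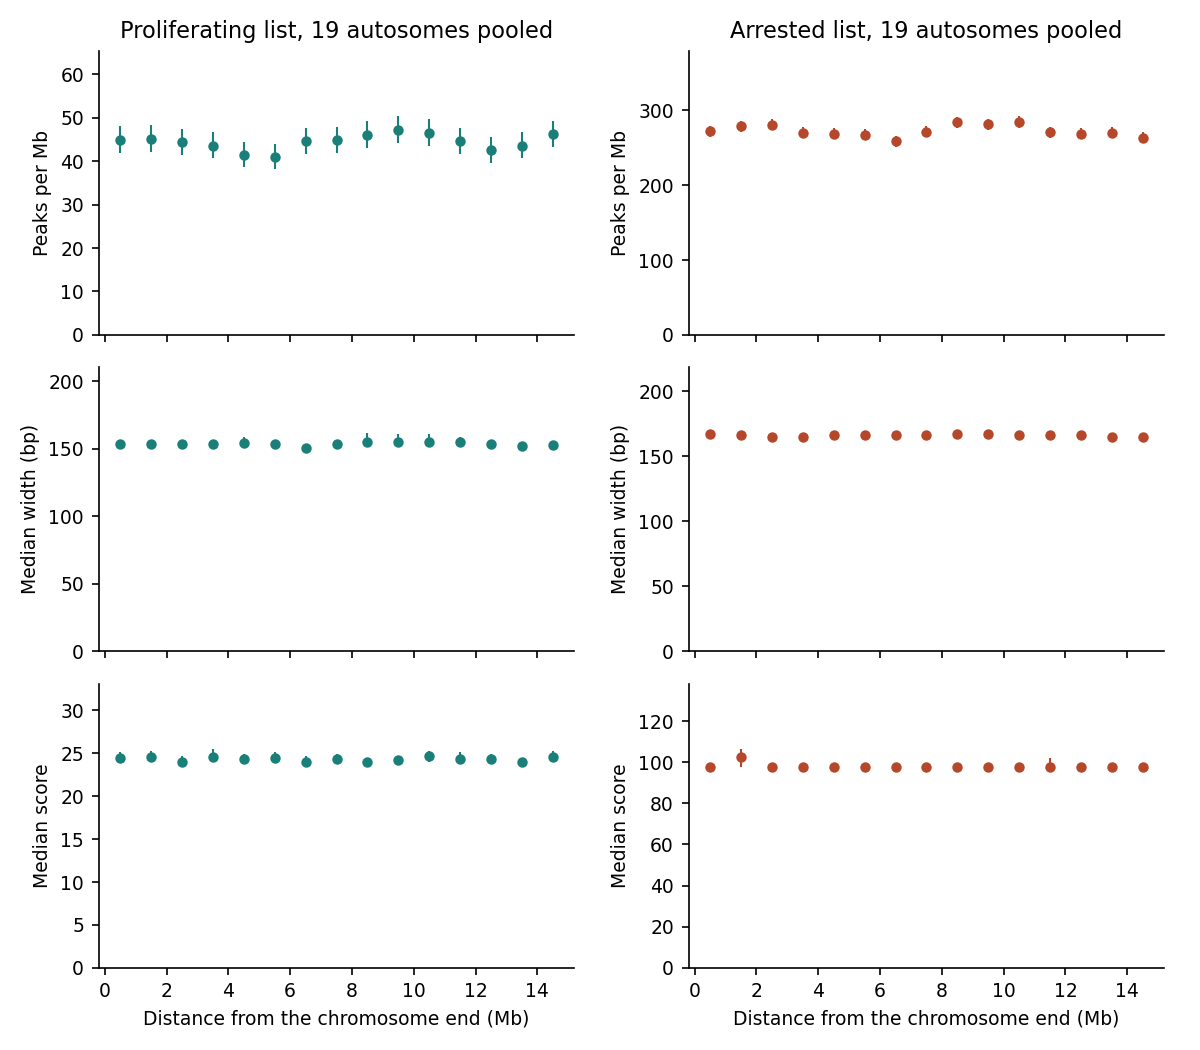
Peaks per Mb, median peak width in bp and median score in 1 Mb steps from the autosome end (x axis, Mb), with 19 autosomes pooled; points are values and bars are exact 95% intervals. The outermost step, at 44.9 proliferating and 271.7 arrested peaks per Mb, lies among the others.

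Single autosomes differed from this average in both directions. In proliferating cells the last megabase held from 33 peaks (chromosome 9) to 56 (chromosome 11), with a median of 46, and in arrested cells from 219 (chromosome 9) to 307 (chromosome 6), with a median of 276. Density was above that of the same autosome's inner band on 11 autosomes and below it on 8, in each list. The interval of the ratio left out 1 on 2 of 19 autosomes in proliferating cells, 1 higher and 1 lower. Single 1 Mb windows inside the band, set against the other 9 of their band, gave 30 of 190 such windows, or 15.8% (7.37% higher and 8.42% lower). In arrested cells the interval left out 1 on 5 of 19 autosomes, 1 higher and 4 lower, against 41 of 190 band windows, or 21.6% (12.1% higher and 9.47% lower). In total the ends that stood apart were about as frequent as such windows, but among arrested ends lower ones, at 4 of 19, were more frequent than the 9.47% of windows. Whether this share differs was not tested. The window shares include the band of chromosome 2, where 2 windows held only 22 and 70 arrested peaks. They also include that of chromosome 4, whose windows held from 22 to 106 proliferating peaks. Both autosomes had many windows that stood apart, and the shares were not recomputed without them.

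The 3 highest proliferating ratios were on chromosome 19, with 55 peaks against 39.8 per Mb inward (ratio 1.38, interval 1.02 to 1.84), on chromosome 6, with 55 against 42.8 (1.285, 0.952 to 1.705), and on chromosome 12, with 48 against 40.2 (1.19, 0.866 to 1.61). The 3 lowest were on chromosome 17, with 34 peaks against 51.6 (0.659, 0.451 to 0.933), on chromosome 10, with 35 against 47.5 (0.737, 0.507 to 1.04), and on chromosome 9, with 33 against 43.6 (0.757, 0.514 to 1.08). Only chromosomes 19 and 17 had intervals that left out 1. The last megabase of chromosome 17 was below each of the 10 windows of its band, of which the sparsest held 40 peaks. Of the chromosome's 95 windows, 24 held fewer. Here and below, windows were counted over the whole chromosome. On every autosome they include at least 1 window with 0 peaks in each list.

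In arrested cells the highest ratio was that of chromosome 2, with 287 peaks against 229.1 per Mb (1.25, interval 1.10 to 1.42). Its inner band contains 2 sparse windows, from 5 to 6 and from 6 to 7 Mb from the end, with 22 and 70 arrested and 2 and 11 proliferating peaks. Without them, a choice made after seeing the data, the arrested ratio of chromosome 2 was 1.04 (0.920 to 1.18) and the proliferating one 0.889 (0.624 to 1.23). The end itself was not dense for chromosome 2, since it ranked 76 among the chromosome's 181 windows of 1 Mb by arrested peaks. Next came chromosome 6, with 307 peaks (1.12, 0.996 to 1.26), and chromosome 3, with 306 (1.11, 0.985 to 1.25). The end of chromosome 6 had more peaks than 138 of its 149 windows in arrested cells and than 136 in proliferating cells.

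The lowest arrested ratio was on chromosome 9, with 219 peaks against 264.8 per Mb (0.827, 0.717 to 0.9496). It was followed by chromosome 18, with 239 against 276.2 (0.865, 0.755 to 0.988), and chromosome 19, with 252 against 288.1 (0.875, 0.766 to 0.995). Chromosome 13 was close to these, with 249 against 284.3 (0.876, 0.766 to 0.997). Each of these 4 ends held fewer arrested peaks than any single window of its band. The opposite was seen at 1 end in each list, chromosome 3 in arrested cells, with 306 peaks against at most 300 in a window of its band, and chromosome 6 in proliferating cells, with 55 against at most 54. On chromosome 9, 3 of the 124 windows held fewer, and on chromosome 18, 4 of 90. The sparsest window held 0 peaks on both, so each end ranks lower still among windows that hold peaks. How many of the sparser windows were empty was not counted.

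The end of chromosome 9 contains the longest stretch without an arrested peak of all 19 ends. It ran over 79.7 kb, from 123772334 to 123852023 in build mm9, and lay inside the longest stretch without a proliferating peak on that end, 133.4 kb from 123759937 to 123893291. On the other autosomes the longest arrested stretch in the last megabase measured 17.6 to 38.6 kb. The longer inner bands of 4 autosomes held stretches without an arrested peak that exceeded the one at the end of chromosome 9, up to 410.3 kb on chromosome 1. Outside its stretch the end of chromosome 9 had 238.0 arrested peaks per Mb against 264.8 in its band, a ratio of 0.899 whose interval includes 1 (0.779 to 1.03). The band was not trimmed in the same way. No mm9 gene, repeat or gap annotation was used, so what lies in that stretch was not tested.

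**Figure D2:**
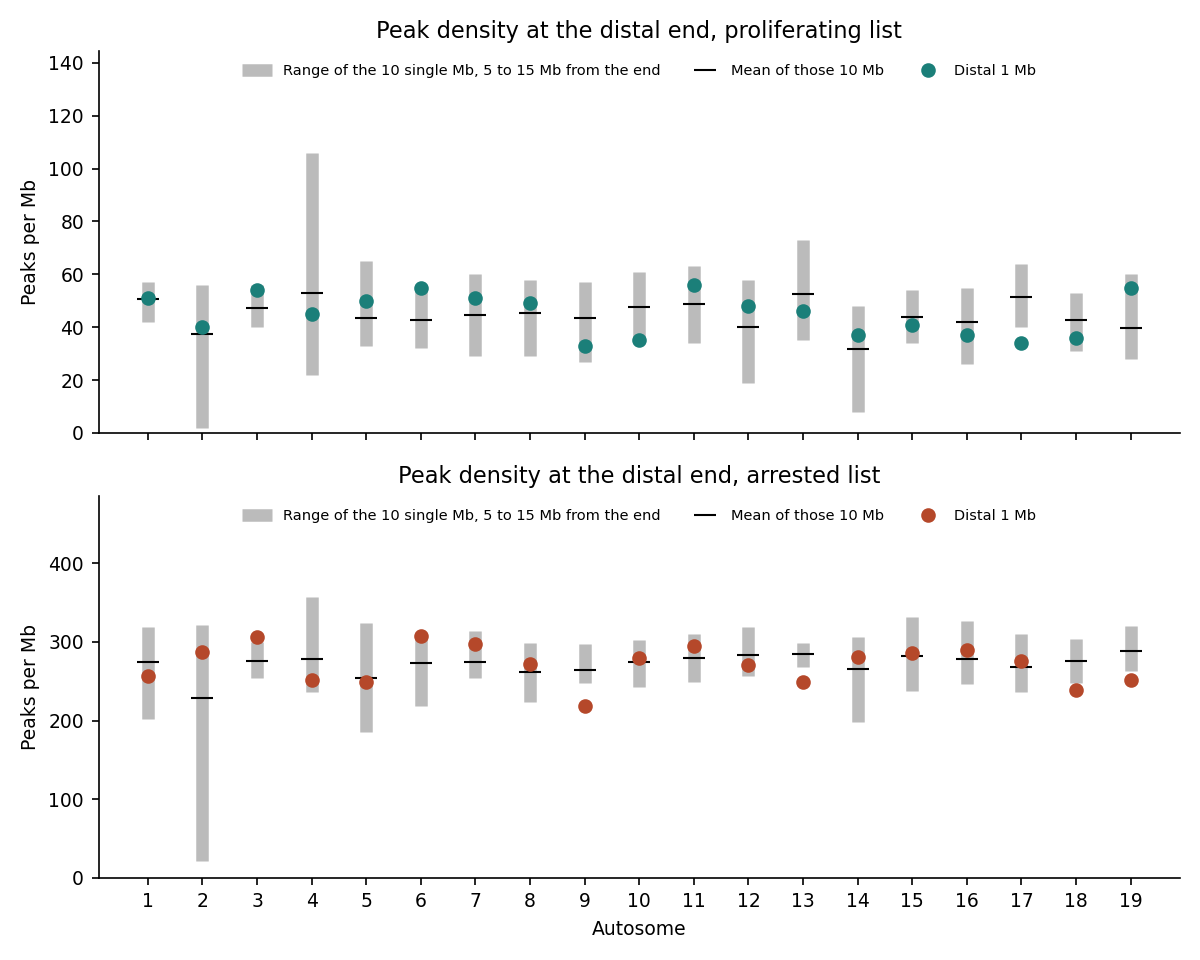
Peaks per Mb (y axis, starting at 0) for each autosome (x axis) in the proliferating list, above, and the arrested list, below; dots are the distal 1 Mb, dashes the mean of the 10 Mb of the inner band and grey bars the range of its single megabases. The arrested dots of chromosomes 9, 13, 18 and 19 lie under their grey bars, and that of chromosome 2 sits in a bar that reaches down to 22 peaks.

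The lists shared these deviations only in part. On 7 autosomes both lists were denser at the end than inward, on 4 both were sparser, and on 8 they went opposite ways. Across the 19 autosomes the proliferating and arrested ratios had a Pearson correlation of 0.30 and a Spearman correlation of 0.36, given as a description; both ratios refer to the same ends and the same sequence. Chromosome 19 was the autosome on which both intervals left out 1 in opposite directions, with 1.38 in proliferating and 0.875 in arrested cells. Chromosome 9 had a ratio below 1 in both, at 0.757 and 0.827.

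**Figure D3:**
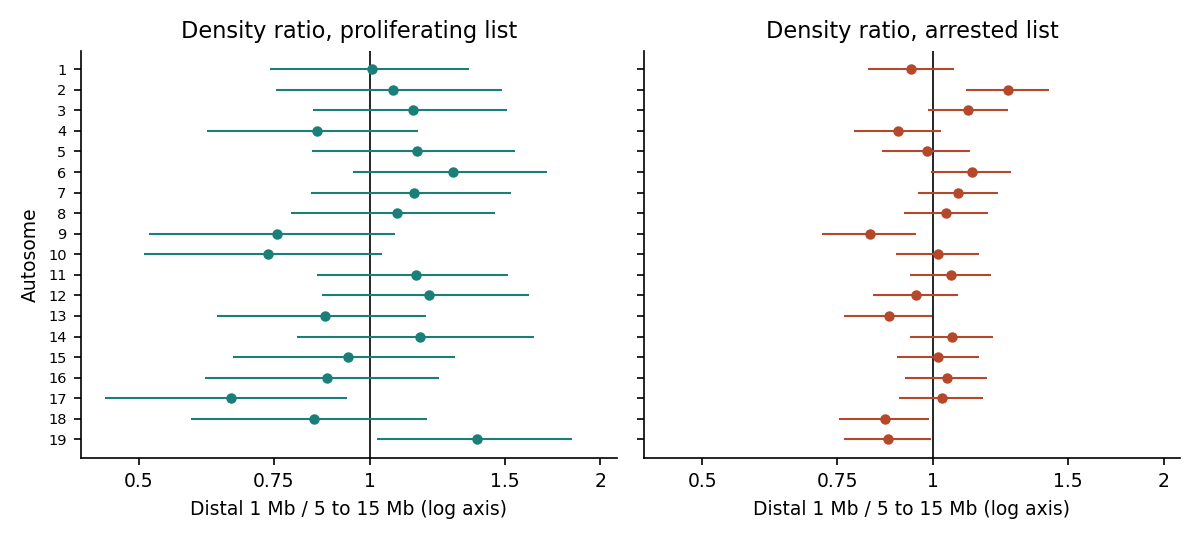
Ratio of peak density in the distal 1 Mb to that of the inner band (x axis, log scale) for each autosome (y axis), proliferating list left and arrested list right; points are ratios, bars exact 95% intervals and the line marks 1. Only 2 proliferating and 5 arrested intervals do not reach the line.

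Peaks at the ends had the usual width. The median was 154 bp in proliferating cells (exact interval 151 to 157) and 154 bp in the inner band (153 to 155), with quartiles of 135 and 186 bp at the ends. In arrested cells it was 167 bp (166 to 168) against 166 bp, with quartiles of 152 and 299 bp at the ends. Of the distal proliferating peaks, 7 (0.821%) were at least 300 bp wide, against 0.987% of all autosomal peaks of that list. Of the distal arrested peaks, 1289 (24.97%) were that wide, against 24.3% of all autosomal ones.

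Very wide peaks were not seen at the ends. None of the 5162 distal arrested peaks reached 1000 bp, which allows a share of up to 0.0581% by the limit of 3 counts. At the autosomal rate of 295 such peaks, 19 Mb would hold 2.27, so their lack is not informative at this number. The inner band held 53, of which 46 were on chromosome 4. That band had a median arrested width of 220 bp (206 to 238) and a median score of 80.4, while the end of chromosome 4 had 166 bp (161 to 168) and 103.3 (94.9 to 115.4). Chromosome 4 was the only autosome on which the distal and inner intervals of arrested width or score were apart, and its end had 0.663 times the covered bases of its band.

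Scores, which are the authors' own values on an unstated scale, also had their usual distribution. The median was 24.5 in distal proliferating peaks (24.0 to 25.1) and 24.25 in the inner band (24.1 to 24.4). In arrested cells it was 97.45 in both, a value that many peaks share. A score of at least 50 was reached by 9 of 853 distal proliferating peaks (1.06%, interval 0.484 to 1.99), against 1.68% of all autosomal ones and 1.72% of the inner band. Among those peaks alone the distal to inner density ratio was 0.616 (0.276 to 1.203), an interval that includes 1. The ratio of covered bases was 0.411, from 9 distal peaks, and is given without an interval. In arrested cells 4388 distal peaks reached 50 (85.0%), against 85.6% of all autosomal ones.

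The highest-scoring distal proliferating peak lay on chromosome 9 (123194211 to 123194443, 233 bp, score 68.91), 867.9 kb from the end, and ranked 134 in its whole list. It overlapped an arrested peak of 355 bp (123194127 to 123194481) with a low score for that list, 29.30. The second lay on chromosome 10 (129959069 to 129959132, 64 bp, score 68.75), only 25.3 kb from the end. It overlapped no arrested peak. A score of 58.79 came next and was shared by 6 members, on chromosomes 3, 7, 8, 12 and 19, of which chromosome 7 held 2. The first 3 by position lay on chromosome 3 (159110220 to 159110299) and chromosome 7 (151927864 to 151927932 and 152430578 to 152430648), and overlapped no arrested peak. The 6 tied peaks were 69 to 92 bp wide, under the list's median of 153 bp.

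The highest-scoring distal arrested peak lay on chromosome 3 (159063512 to 159063734, 223 bp, score 678.5), 530.3 kb from the end, and ranked 112 in its list. The second lay on chromosome 12 (121241894 to 121242061, 168 bp, score 664.2), 13.04 kb from the end. Chromosome 19 held the third and the fourth, at 60441077 to 60441224 (148 bp, score 553.2) and at 60742762 to 60742905 (144 bp, score 511.9). The last of these overlapped a proliferating peak of 174 bp with a score of 39.08. The next score, 498.5, was shared by 2 members, one on chromosome 1 (197076684 to 197076831, 148 bp) and one on chromosome 5.

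The 5 widest distal arrested peaks measured 997 bp on chromosome 10 (129580259 to 129581255), 974 bp on chromosome 4 (155441496 to 155442469), 869 bp on chromosome 17 (95041136 to 95042004), 855 bp on chromosome 1 (196703896 to 196704750) and 853 bp on chromosome 3 (158627978 to 158628830). Their scores ran from 64.81 for the widest to 253.4 for the fifth. The 5 widest proliferating ones measured 378 bp (155019244 to 155019621) and 351 bp (154902159 to 154902509) on chromosome 4, 350 bp (181735190 to 181735539) on chromosome 2, and 318 bp (124496236 to 124496553) and 307 bp (124396245 to 124396551) on chromosome 14. The chromosome 2 peak was the last proliferating peak of that autosome, 9.70 kb from the end by its start. None of these 10 overlapped a peak of the other list.

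Within the last megabase, arrested peaks were wider in the outermost 100 kb, a stretch singled out after its values were seen. The 470 arrested peaks there had a median width of 181.5 bp (interval 170 to 214), against 166 bp in the 4692 peaks from 100 to 1000 kb (165 to 167) and 166 bp in the inner band. Of them, 149 (31.7%, interval 27.5 to 36.1) were at least 300 bp wide, against 24.3% of all autosomal arrested peaks and 24.6% of the inner band (24.2 to 24.9). Among the 150 bins of 100 kb that make up the outer 15 Mb, with autosomes pooled, the outermost had the highest median width, with 163 to 170.5 bp in the others, and the highest share of peaks of at least 300 bp, with 18.5% to 30.6% in the others. The margin in the share was small, 31.7% against 30.6% in the next highest bin, at 9700 to 9800 kb. The adjoining bin, at 100 to 200 kb, had 25.65%. No test was made of a stretch chosen in this way.

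The widening was seen on most autosomes but rested on few peaks in each. In the last 100 kb the median arrested width was above that of the inner band on 16 autosomes. It was equal on chromosomes 2 and 11 and lower on chromosome 5, at 157 against 168 bp. On some of the 16 the difference was slight. Chromosome 12 had 167.5 against 167 bp, chromosome 3 had 166.5 against 165 bp and chromosome 10 had 168.5 against 165 bp. Each autosome had 17 to 34 peaks there. The largest median was 289 bp on chromosome 14, from 29 peaks, followed by 274 bp on chromosome 1, from 19. Without the last peak of each autosome, which can define the end, 31.3% of 451 peaks were at least 300 bp wide. In the last 50 kb the share was 35.5% of 251 peaks (29.5 to 41.7), and in the last 200 kb 28.5% of 1012 (25.7 to 31.4).

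Scores in the outermost 100 kb of arrested cells were lower, while widths were higher. Their median was 88.8 (80.4 to 96.3), against 97.45 in the inner band, and no other of the 150 bins had a lower one, though 2 equalled it. It was lower than in the inner band on 13 autosomes, higher on 4 and equal on 2. Wide arrested peaks had lower scores in the inner band too, with a median of 57.1 at 300 bp and above and 112.0 below 300 bp. Within each width class the outermost 100 kb overlapped the band, at 54.7 (46.3 to 61.7) for the wide peaks and 106.3 (97.5 to 115.4) for the narrow ones. The density there was 247.4 per Mb, or 0.910 times the inner band (0.829 to 0.996), and 5 of the other 149 bins held fewer peaks. Without the last arrested peak of each autosome, which can define the end, it was 237.4 per Mb, or 0.873 times the band (0.794 to 0.958).

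In proliferating cells the outermost 100 kb held 91 peaks, or 47.9 per Mb, with a median width of 154 bp (148 to 167) and a median score of 24.0 (23.4 to 25.7). Of these, 2 (2.20%, interval 0.267 to 7.71) were at least 300 bp wide. The interval of the median width includes the 154 bp of the inner band. The difference between the lists was not tested.

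**Figure D4:**
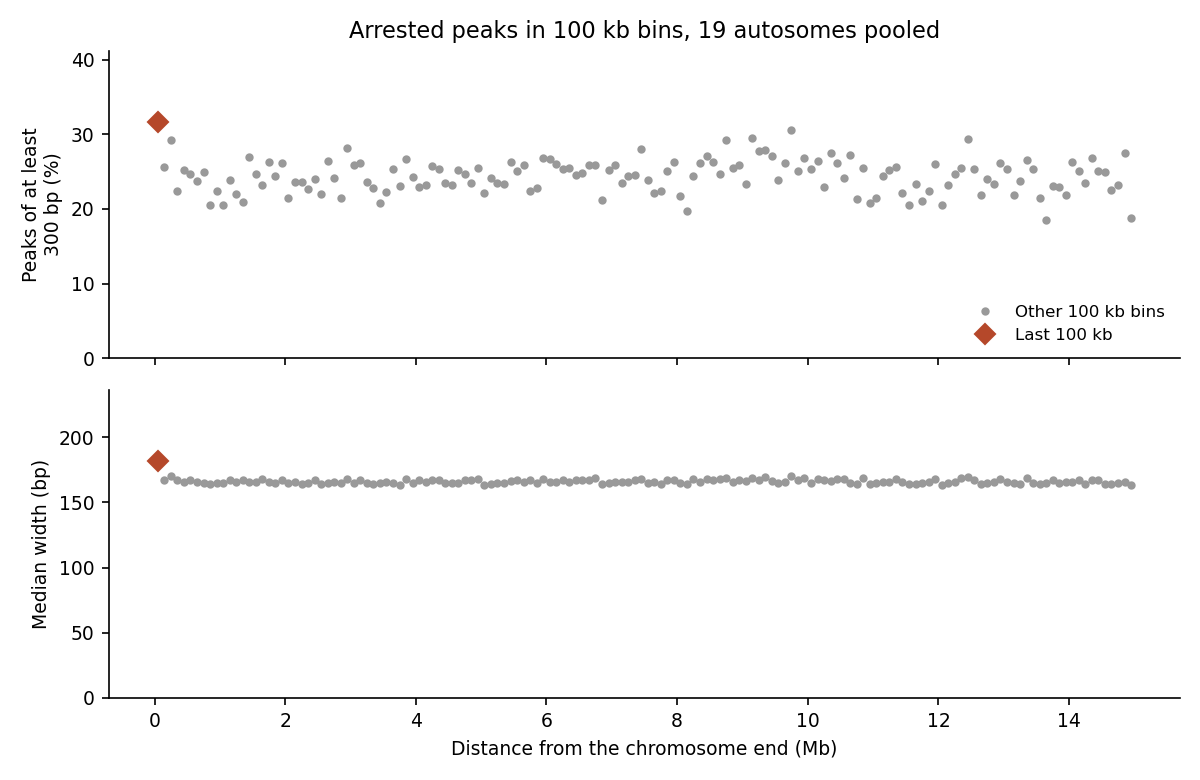
Share of arrested peaks at least 300 bp wide (above, %) and their median width in bp (below) in 100 kb bins by distance from the autosome end (x axis, Mb), with 19 autosomes pooled; the diamond is the last 100 kb and dots are the other 149 bins. The diamond, at 31.7% and 181.5 bp, is the highest point of both panels.

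Overlaps between the lists were as common at the ends as inward, and overlapping peaks are called shared below. Arrested peaks covered 6.27% of the distal 19 Mb, so overlaps would arise by position alone. Since 1 bp is enough and a peak spans many bases, the share from chance placement would be above 6.27%. It was not computed, and an overlap is not taken as a common site. Of the 853 distal proliferating peaks, 95 (11.1%, exact interval 9.11 to 13.4) overlapped an arrested peak by at least 1 bp, against 11.6% of all autosomal proliferating peaks and 12.1% in the inner band (11.4 to 12.8). Of the 5162 distal arrested peaks, 95 (1.84%, 1.49 to 2.245) overlapped a proliferating one, against 1.83% of all autosomal arrested peaks and 1.99% in the band. Chromosome 4 gave 123 of the 1027 shared peaks of the proliferating band, 23.3% of its 528 peaks there, and without it the band's share was 11.4%. Proliferating members that overlapped no arrested peak lay a median of 1192 bp from the nearest one (interval 1086 to 1311), against 1118 bp (1077 to 1152) in the band.

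The shared peaks were unevenly spread over the ends. Chromosome 19 had 13 of its 55 distal proliferating peaks shared (23.6%, interval 13.2 to 37.0), chromosome 3 had 12 of 54 (22.2%, 12.04 to 35.6) and chromosome 13 had 10 of 46 (21.7%, 10.9 to 36.4). These 3 were picked as the highest of 19. The lowest was chromosome 18, with 1 of 36 (2.78%). In their inner bands chromosomes 19, 3 and 13 had 12.3%, 12.7% and 14.6%. The other 16 ends together had 60 of 698 shared (8.60%, 6.62 to 10.9).

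Shared and unshared members differed little within the proliferating list. The 95 shared ones had a median width of 151 bp (145 to 172) and a median score of 26.25 (24.0 to 28.7), and the 758 others had 154 bp (151 to 158) and 24.4 (24.0 to 24.97). In the arrested list the 95 shared peaks were wider, at 231 bp (173 to 284) against 167 bp (166 to 168); a wider peak has more bases with which to overlap. After the chromosome 9 peak described above, the shared proliferating peak with the highest score was on chromosome 19 (60632361 to 60632517, score 50.62), with an arrested partner at 60632224 to 60632396 (score 72.22). A score of 49.28 came next and was tied between 5 shared members, 2 of them on chromosome 19. The first 3 by position lay on chromosome 10 (129697938 to 129698031), chromosome 11 (121220486 to 121220563) and chromosome 12 (121161301 to 121161378), and their arrested partners had scores of 205.8, 97.45 and 64.53.

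**Figure D5:**
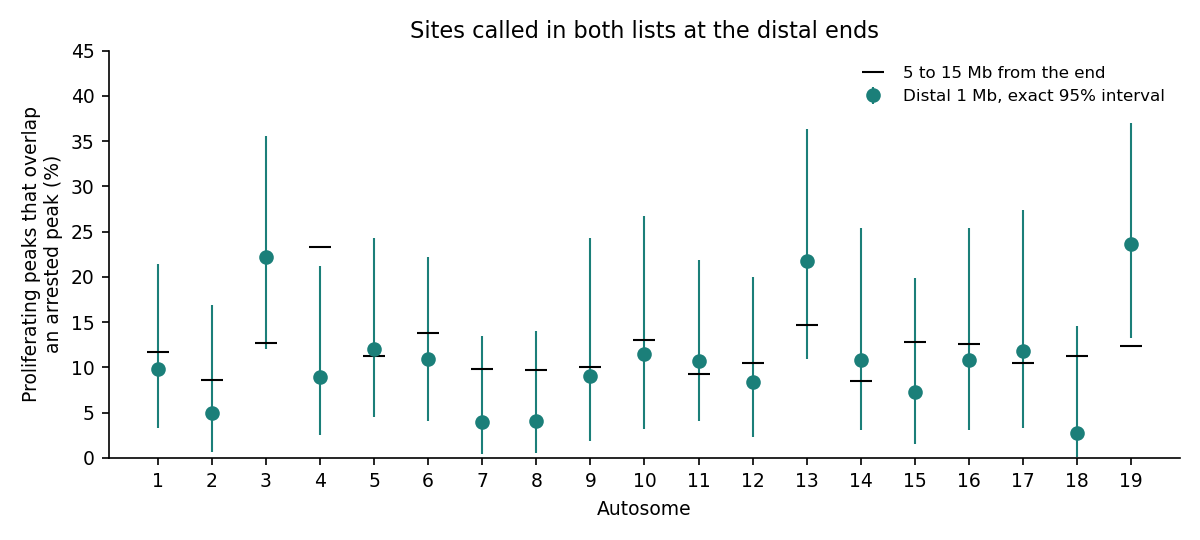
Percent of proliferating peaks in the distal 1 Mb that overlap an arrested peak (y axis) for each autosome (x axis); dots are shares, bars exact 95% intervals and dashes the share in the inner band. Chromosomes 3, 13 and 19 lie at 21.7% to 23.6% and the pooled share is 11.1%.

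The genes near these ends can be named only in outline, because the gene table at hand, from RefSeq, is on the build GRCm38 and the peaks are on mm9. No peak was assigned to a gene. In RefSeq order the outermost protein-coding genes of chromosome 3 include Wls, which carries Wnt proteins to the cell surface, Rpe65, the isomerase of the visual cycle, and Depdc1a. Those of chromosome 12 include Tmem196, Macc1 and Itgb8, an integrin subunit. Chromosome 10 ends with vomeronasal receptor genes such as Vmn2r87 and Vmn2r86.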

How the data were processed

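Peak lists of 2 immunoprecipitated libraries were used, 1 per growth condition, grouped by their titles. The submitters' processing notes name build mm9 and the tools bedtools, Bowtie2, HOMER and MACS2. Tool versions, settings and any use of the inputs as control are not stated in the labels. The deposited lists hold 5 columns each (chromosome, start, end, name and the authors' score) and no read counts, so the depth behind a peak is not known; peak numbers set the precision.

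Members were found by position alone. Densities are peaks per Mb by start; coordinates are mm9, written 1-based. Intervals at 95% are exact: Poisson for densities, conditional binomial for ratios of densities, Clopper-Pearson for shares and order statistics for medians. No test was made between conditions or over chromosomes. Named peaks are the 5 highest-scoring and 5 widest members of each list and the 5 highest-scoring shared ones; named autosomes are the 3 highest and 3 lowest by density ratio. Members and comparisons were chosen with earlier results of these data known. Python 3.11.15, numpy 2.4.6, pandas 2.3.3, SciPy 1.17.1 and matplotlib 3.10.9 were used. The code was tested on simulated lists. Alternatives changed the distal distance, the band, the score limit, the overlap, the chromosome end and the autosomes included.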

Additional observations from a re-analysis of the deposited data

Results flagged for a closer look

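The end of chromosome 19 had density ratios on opposite sides of 1 in the 2 lists. The distal to inner density ratio was 1.38 in proliferating cells (interval 1.02 to 1.84) and 0.875 in arrested cells (0.766 to 0.995), and each interval left out 1. Among single windows of the inner bands, 15.8% of proliferating and 21.6% of arrested ones also had an interval that left out 1. The 55 proliferating peaks at this end were fewer than the 60 in the densest window of its band. With 1 library per condition the difference was not tested, and chromosome 19 was the one autosome of 19 with such a pattern.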

How the results depend on the processing

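Of 135 alternative values of 11 results, 125 stayed inside the interval of the reported value, 10 moved out of it and 0 reversed. Covered bases were judged by the relative interval of density, which leaves out the spread of peak widths. A reversal was counted only for a ratio whose reported interval left out 1, and none did. The count of reversals could therefore only be 0 and shows nothing about stability. Some of the 125 values could not move either. Neither the ends nor the inner band held a proliferating peak of 1000 bp. Leaving such peaks out therefore changed no proliferating ratio except that of overlap. In the last 100 kb of arrested cells it left the share of peaks of at least 300 bp at 31.7%. With 0.5 Mb in place of 1 Mb, the arrested density ratio was 0.958 (interval 0.919 to 0.997) and the width ratio 1.02; with the band at 15 to 25 Mb the arrested width ratio was 1.01. Ratios of the arrested medians have very narrow intervals because many peaks share 1 value. In the upper 50% by score, the proliferating score ratio was 0.980. A score of at least 50, chosen after seeing the data, left 9 distal proliferating peaks. It gave proliferating ratios of 0.616 for density (0.276 to 1.203), 0.411 for covered bases and 0.930 for width. It also gave an arrested score ratio of 1.04 and an arrested overlap ratio of 0.558 (0.00893 to 5.24). In the last 100 kb of arrested cells it left 22.0% of peaks at 300 bp or more, against 16.5% in the inner band, since wide peaks have lower scores. The causes of the other moves were not tested. Leaving out 1 autosome kept the arrested density ratio between 0.988 and 1.01 and the proliferating one between 0.987 and 1.03. No paired analysis was possible because each condition had 1 library. For the same reason no replicate could be left out.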
